A study of Saccharomyces cerevisiae with 12 samples.

Results

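Gene expression on glucose was compared between the rich medium YPD and the synthetic complete medium SC, in 8 of the 12 RNA-seq libraries of the series. The YPD group held 4 libraries, 2 from cultures at 24 °C and 2 from cultures at 32 °C. The SC group held 4 libraries, 2 from cultures at 30 °C and 2 from cultures at 37 °C, with no salt added. Every library came from BY4743, a diploid laboratory strain of *Saccharomyces cerevisiae*, grown as small cultures in titration plates and harvested late in growth, and the 2 replicates of each environment were started independently. The 4 libraries left out of the comparison were from YPG at 30 °C, which is YPD with glycerol in place of glucose (named so by the sample titles, while another label gives YPD), and from SC with 40 g/l of NaCl, also at 30 °C. A gene was kept as a medium response when its 4 YPD values lay all above or all below its 4 SC values, among 6026 genes whose mean over the 8 libraries was 10 scaled counts or more. This held for 1953 genes, of which 526 (8.73%) were higher in YPD and 1427 (23.7%) were lower.

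YPD is made of yeast extract, peptone and glucose, so it supplies peptides, amino acids, nucleobases, vitamins, lipids and metals from biological material in amounts that are not set. SC supplies glucose, ammonium, a defined set of amino acids and nucleobases, and a defined mixture of salts, trace metals and vitamins. Yeast cells sense many of these nutrients one by one: Pho4 switches on genes for phosphate uptake when phosphate is short, Zap1 does so for zinc, Aft1 for iron, Gcn4 for amino acid synthesis, and Msn2 with Msn4 for a broad stress response. Other sets of genes answer to inositol, to vitamins and to the kind of sugar.

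The 8 libraries had near-equal totals of 13872996 to 14109851 scaled counts, since the deposited values had been brought to a common size. Replicates of an environment correlated across genes at 0.992 to 0.994 on the log2 scale, and YPD libraries correlated with SC libraries at 0.932 to 0.946. *URA3* and *LEU2*, which are deleted in BY4743, were listed at 0 in every library. Genes of **a** cells, α cells, haploid cells and sporulating cells each took at most 0.0112% of the counts in any of the 8 libraries. Of these markers *STE3*, *STE4* and *GPA1* were lower in YPD, the last with a call that was lost when any 1 of 6 libraries was left out (adjusted p up to 0.1, limma), and their part in any result was not tested.

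Differences are given as log2 differences, YPD minus SC, on the log2(scaled count + 1) scale, and were tested with limma over the 8 libraries with Benjamini-Hochberg adjustment over the 6026 genes. Below, a gene is called higher or lower in YPD only when its adjusted p was under 0.05 and its groups did not overlap. By the p-value alone 402 genes passed as higher (6.67%) and 1219 as lower (20.2%). By both criteria 389 genes were higher in YPD (6.46%) and 1177 were lower (19.5%). A lower value may reflect less RNA of a gene in each cell or fewer cells that express it, which cannot be told apart in bulk RNA. The median size among the called genes was 0.54 for those higher and -0.72 for those lower. A difference of at least 1, which is a 2-fold change, was met by 63 of the genes higher in YPD and 325 of those lower. A difference of at least 4 was met by 4 and 12 genes. The split between directions depended on scaling, because the log2 difference had a median over all genes of -0.15 as deposited and 0.01 after median-of-ratios scaling. With that scaling 841 genes were called higher (14.0%) and 940 lower (15.6%), so the share of higher genes among the called went from 24.8% to 47.2%. With and without the scaling 386 genes were called higher (6.41%) and 920 lower (15.3%). The border of the non-overlap rule was narrow: *LAS17* lay inside it by 0.000228 log2 units and *YVH1* outside by the similar distance of -0.000101.

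**Figure D1:**
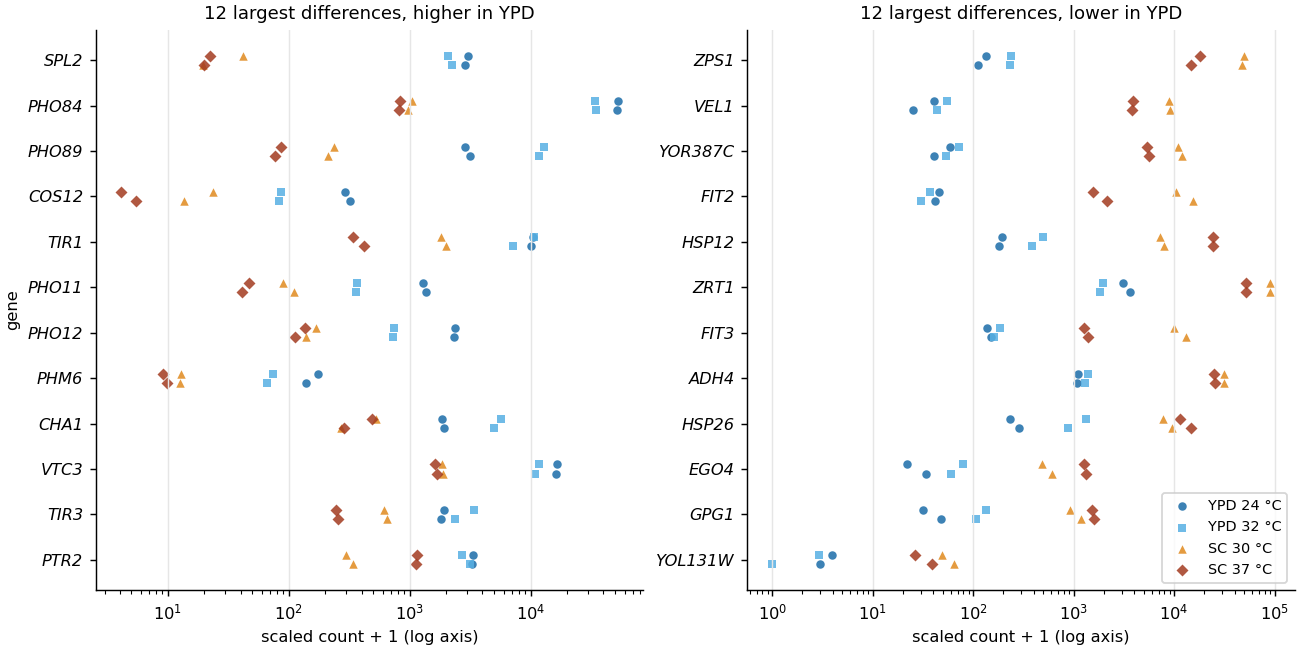
Scaled counts plus 1 (horizontal log axis) in each of the 8 libraries for the 12 called genes with the largest difference in each direction, one row per gene and one point per library, with circles and squares for YPD at 24 and 32 °C and triangles and diamonds for SC at 30 and 37 °C. The YPD and SC points are apart in every row, from *SPL2* with a log2 difference of 6.68 to *ZPS1* with -7.38.

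Temperature differed between the media as well, since no temperature was used in both. The temperatures interleaved, with YPD at 24 °C, SC at 30 °C, YPD at 32 °C and SC at 37 °C, so a gene that followed temperature alone, and in a single direction, would have its SC values at 30 °C between the YPD values and would not be kept. A response to temperature that turns back within this range cannot be told apart from one to the medium. In the pair of environments closest in temperature, YPD at 32 °C against SC at 30 °C, 1025 genes were higher (17.0%) and 1313 lower (21.8%), and 331 of the 389 genes called higher and 899 of the 1177 called lower passed the test there in the same direction, a direction that the rule had fixed. With temperature added to the model as a linear covariate, 311 and 815 of these genes still passed. Within SC, 721 genes were higher at 37 °C than at 30 °C (12%) and 704 lower (11.7%). Within YPD, 2595 genes were higher at 32 °C than at 24 °C (43.1%) and 408 lower (6.77%), and this imbalance went with scaling, as the counts became 1249 and 1276 after median-of-ratios scaling. The median absolute log2 difference over all tested genes was 0.27 between media, 0.20 between the temperatures in SC and 0.33 between those in YPD.

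Genes of phosphate starvation were the group with the largest rise in YPD. Of the 21 listed, all tested, 15 (71.4%) were higher in YPD, against 6.46% of all genes, and 2 (9.52%) were lower, against 19.5%. The listed genes had a median log2 difference of 1.39, against -0.15 for all genes. Their share of all counts was 0.737 to 0.939% in the 4 YPD libraries and 0.169 to 0.179% in the 4 SC libraries. The sequences upstream of the genes with the largest differences are shown for the letters that Pho4 binds. CACGTG, which reads the same on both strands, lay within 500 bases before the start codon of 16 of the 21 genes and of 6.23% of 6000 protein-coding genes. With CACGTT, searched on both strands, 18 of the 21 genes and 21.0% of all genes held a match. In the stretches of the R64 genome below, read 5′ to 3′ on the strand of the gene, capitals mark these letters, and AACGTG is CACGTT on the other strand.
*PHO84*, chrXIII:26042-26251, minus strand: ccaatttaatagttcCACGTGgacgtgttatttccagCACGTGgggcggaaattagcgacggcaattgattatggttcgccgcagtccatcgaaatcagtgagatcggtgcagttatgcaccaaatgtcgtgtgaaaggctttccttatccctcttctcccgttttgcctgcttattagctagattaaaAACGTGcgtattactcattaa
*SPL2*, chrVIII:375227-375476, minus strand: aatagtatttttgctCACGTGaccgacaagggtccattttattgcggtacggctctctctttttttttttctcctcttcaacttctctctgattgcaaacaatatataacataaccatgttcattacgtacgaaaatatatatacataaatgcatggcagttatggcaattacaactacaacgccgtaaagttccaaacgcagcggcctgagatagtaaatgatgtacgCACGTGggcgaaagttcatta
The matches are a description of the letters, and binding was not measured.

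*PHO84* (YML123C, chromosome XIII, 24037 to 25800) encodes the high-affinity phosphate transporter of the plasma membrane. It had 52985 and 51914 scaled counts in YPD at 24 °C, 34324 and 34918 at 32 °C, 1042 and 966 in SC at 30 °C, and 827 and 809 in SC at 37 °C. All YPD values were far above all SC values, and the level per length was 1689 FPKM in YPD and 35.3 FPKM in SC. The log2 difference was 5.55 ± 0.17 (SE), or 47.0-fold (limma, adjusted p = 4.72e-07). *SPL2* (YHR136C), whose product holds back low-affinity phosphate uptake, had 3048 and 2872 scaled counts in YPD at 24 °C, 2079 and 2225 at 32 °C, 40.8 and 18.5 in SC at 30 °C, and 21.5 and 18.9 in SC at 37 °C. It was near the bottom of the measured range in SC, and its log2 difference of 6.68 ± 0.26 (SE) was the largest rise among the called genes. *PHO89* (YBR296C), the sodium-coupled phosphate transporter, had 2849 and 3142 scaled counts in YPD at 24 °C, 12940 and 11723 at 32 °C, 236 and 211 in SC at 30 °C, and 85.1 and 76.6 in SC at 37 °C. Its log2 difference was 5.49, and temperature moved it in opposite directions in the 2 media.

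Other members with a call follow by role. Among the phosphatases, the secreted acid phosphatases *PHO11* and *PHO12* were higher by 3.39 and 3.27, *PHO5* by 1.94, and the vacuolar alkaline phosphatase *PHO8* by 1.39. The coding sequences of *PHO11* and *PHO12* were 99.7% identical, so reads could not be divided with certainty between them. All 3 acid phosphatase genes were higher at 24 °C than at 32 °C in YPD: *PHO5* had 5158 and 5257 scaled counts at 24 °C and 1431 and 1327 at 32 °C, against 538 to 935 over the 4 SC libraries. The call of *PHO5* was lost with the linear temperature covariate (adjusted p = 0.108, limma) and without SC at 30 °C replicate 1 (0.0515) or replicate 2 (0.0562). The listed genes of the vacuolar complex that makes polyphosphate were all higher in YPD, *VTC3* by 2.96, *VTC1* by 2.2, *VTC4* by 2.09 and *VTC2* by 1.16. *PHO81*, the inhibitor of the kinase that restrains Pho4, and *PHO86*, which helps Pho84 leave the endoplasmic reticulum, were each higher by 0.97. *PHM6*, of unknown function, was higher by 3.24 at a low level of 64.7 to 173 scaled counts in YPD and 8.20 to 11.8 in SC.

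Some phosphate genes did not rise. The low-affinity plasma membrane transporters *PHO87* and *PHO90* had log2 differences of 0.10 and 0.18 that did not pass the test, as did *GDE1* with 0.17 and *GIT1* with 0.52, which serve the use of glycerophosphodiesters. *PHO91*, the vacuolar transporter, passed narrowly at 0.44, and its call was lost when any 1 library of SC at 30 °C or of YPD was left out (adjusted p 0.0713 to 0.117, limma). *PHM7* and *PHM8* were lower in YPD, by 2.88 and 1.52 on the log2 scale. *PHM7* reached 31018 and 27581 scaled counts in SC with NaCl, against 227 to 961 in SC without salt.

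Genes of the zinc regulon moved the other way. Of the 18 listed, 16 (88.9%) were lower in YPD, against 19.5% of all genes, and none was higher, with a median log2 difference of -1.22. Their share of all counts was 1.85 and 1.87% in SC at 30 °C, 1.09% in both replicates at 37 °C and 0.204 to 0.226% over the YPD libraries. *ZRT1* (YGL255W, chromosome VII, 20978 to 22108), the high-affinity zinc transporter, had 89348 and 89200 scaled counts in SC at 30 °C, 51887 and 51981 in SC at 37 °C, 3090 and 3624 in YPD at 24 °C, then 1980 and 1830 at 32 °C. At 4271 FPKM it was among the most abundant transcripts in SC, and it stood at 159 FPKM in YPD. The log2 difference was -4.75 ± 0.28 (SE), 27.0-fold lower in YPD (limma, adjusted p = 1.74e-05). Its upstream region holds the palindrome bound by Zap1, in capitals in the following stretch of the R64 genome.
*ZRT1*, chrVII:20759-20799, plus strand: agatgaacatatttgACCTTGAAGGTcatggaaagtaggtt
The strict form, ACCTT and AAGGT with any 1 base between them, which reads the same on both strands, lay upstream of 9 of 6000 genes (0.15%), and in the list of *ZRT1* and *ZRG17* only, since most sites of this regulon differ from it in some letters.

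The steepest fall in YPD was that of *ZPS1* (YOL154W), which encodes a cell wall protein made in zinc-poor medium. It had 49133 and 47858 scaled counts in SC at 30 °C, 17906 and 14711 in SC at 37 °C, 132 and 110 in YPD at 24 °C, then 236 and 232 at 32 °C. The log2 difference was -7.38 ± 0.45 (SE), or 166-fold (limma, adjusted p = 1.81e-05). *VEL1* and *YOR387C*, a pair of genes of unknown function with 92.4% identical coding sequences, had log2 differences of -7.22 and -7.17, from at least 3848 scaled counts in each SC library to at most 71.0 in each YPD library, and reads shared between them could be assigned to either. *ADH4* (YGL256W), a zinc-regulated alcohol dehydrogenase, had 31145 and 31295 scaled counts in SC at 30 °C, 25042 and 25685 in SC at 37 °C and 1082 to 1383 over the YPD libraries. Its difference of -4.54 ± 0.12 (SE) had the smallest error among the 24 genes in the plot of the largest differences.

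The remaining zinc genes fell by less. *ZAP1*, the activator itself, was lower by 2.91 on the log2 scale, and *ZRT3*, which exports zinc from the vacuole, by 2.56. *ZRT2*, the low-affinity transporter, was lower by 1.08, *FET4*, a low-affinity transporter of several metals, by 0.89, and *ZRC1*, which loads zinc into the vacuole, by 0.69. *ZRG17* and *MSC2*, which form a zinc importer of the secretory pathway, were lower by 1.37 and 0.50. Scaling by median of ratios ended the calls of *IZH2* (-1.36) and *ZRC1*, and *IZH2* was also lost with the temperature covariate (adjusted p = 0.0884, limma) and without any 1 library of SC at 30 °C or of YPD at 24 °C (0.0891 to 0.0948). Outside the 8 libraries, *ZPS1* had 218 and 234 scaled counts in YPG and 255 and 271 in SC with NaCl, at the low level of YPD.

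**Figure D2:**
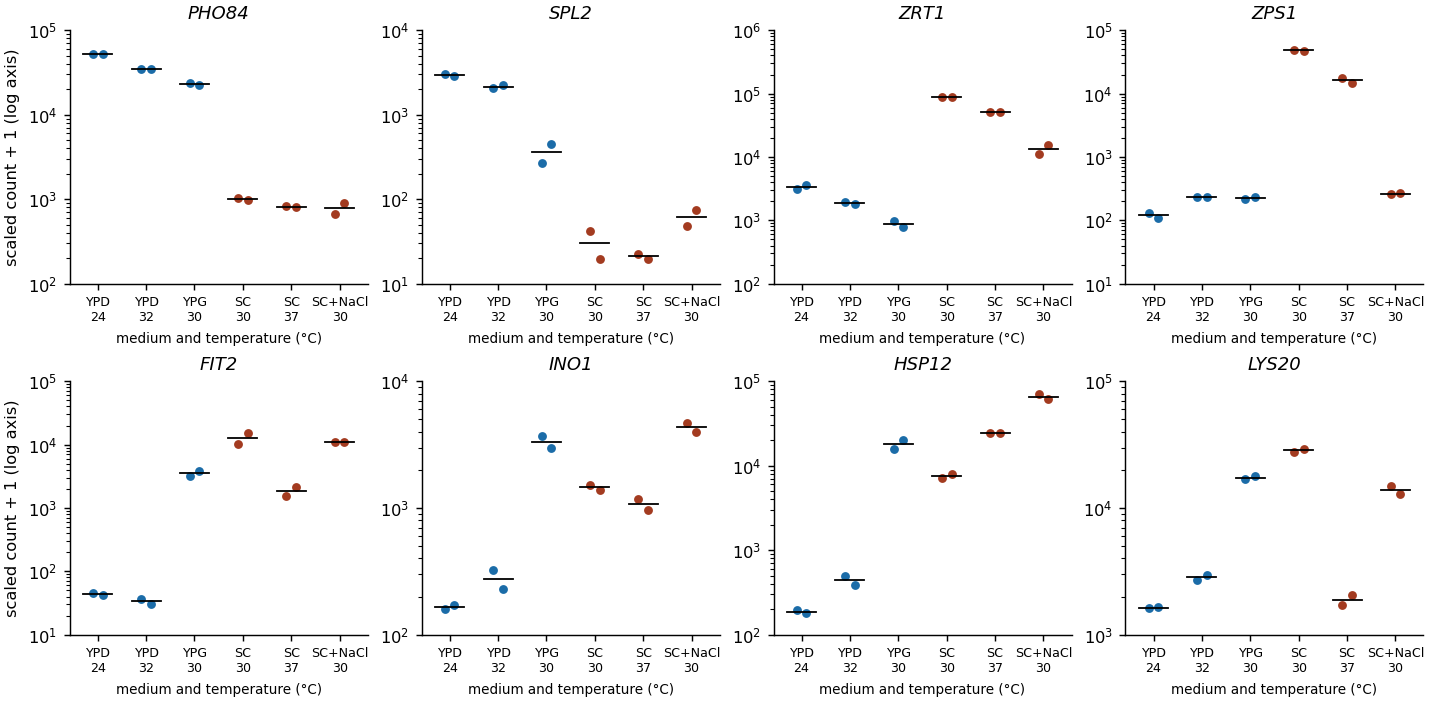
Scaled counts plus 1 (vertical log axis) of 8 genes in the 6 environments of the series, with 2 libraries per environment as points and their mean as a bar, in blue for media with yeast extract and peptone and in red for SC. *PHO84* is high in YPD and YPG, and *SPL2* is high in YPD and lies between YPD and SC in YPG. *ZPS1* is high in SC without salt only among these environments, and *LYS20* is as low in SC at 37 °C as in YPD.

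Part of the iron uptake genes fell in YPD. Of the 27 listed genes 13 (48.1%) were lower in YPD, against 19.5% of all genes, and none was higher. The median was -0.93, and scaling gave 12 lower and 1 higher. The letters TGCACCC of the Aft1 site, on either strand, lay within 500 bases upstream of 21 of the 27 genes, of 12 of the 13 called lower, and of 2.33% of all 6000. The *FIT2* and *FIT3* genes lie next to each other on chromosome XV and showed the largest falls. Capitals in these stretches mark the site, with GGGTGCA for the other strand.
*FIT2*, chrXV:1059185-1059421, plus strand: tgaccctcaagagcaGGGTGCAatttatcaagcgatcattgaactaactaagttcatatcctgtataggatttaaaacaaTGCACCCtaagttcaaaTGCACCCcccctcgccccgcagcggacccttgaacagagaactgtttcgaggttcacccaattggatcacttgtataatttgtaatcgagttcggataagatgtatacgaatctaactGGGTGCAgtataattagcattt
*FIT3*, chrXV:1061218-1061355, minus strand: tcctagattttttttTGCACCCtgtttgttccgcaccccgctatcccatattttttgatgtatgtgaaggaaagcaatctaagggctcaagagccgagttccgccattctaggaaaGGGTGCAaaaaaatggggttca
Both encode cell wall mannoproteins that hold iron carriers near the cell.

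*FIT2* (YOR382W) had 10327 and 15308 scaled counts in SC at 30 °C, 1563 and 2163 in SC at 37 °C, 44.6 and 41.0 in YPD at 24 °C, then 36.0 and 29.1 at 32 °C, a log2 difference of -6.98 ± 0.68 (SE). *FIT3* (YOR383C) had 9888 and 13155 in SC at 30 °C, 1269 and 1395 in SC at 37 °C and 136 to 184 over the YPD libraries, a difference of -4.62 ± 0.75 (SE). In both genes the SC libraries at 37 °C lay well below those at 30 °C, and the distance to YPD was still many-fold. *TIS11*, which shortens the life of messages for iron-using proteins, fell by 3.23, *CCC2*, which delivers copper to the iron oxidase, by 1.68, *FRE3*, a reductase of iron carriers, by 1.70, and *HMX1*, a heme oxygenase, by 1.62. *ARN1*, an importer of iron carriers, fell by 1.92, a call lost when any 1 library of SC at 30 °C or of YPD was left out (adjusted p 0.0542 to 0.08, limma).

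The central iron transport pair did not pass. *FET3*, the iron oxidase, had 14224 and 15584 scaled counts in SC at 30 °C and 5395 and 6132 in SC at 37 °C, against 5746 and 5735 in YPD at 24 °C, then 1845 and 2417 at 32 °C. Its SC values at 37 °C thus overlapped the YPD values, with a difference of -1.41 (adjusted p = 0.0591, limma). *FTR1*, its partner permease, had 4353 and 4299 in SC at 37 °C, below its 6871 and 6693 in YPD at 24 °C, and its groups overlapped as well. The share of counts of all listed iron genes was 0.639 and 0.741% in SC at 30 °C, 0.215 and 0.230% in SC at 37 °C, and 0.141 to 0.200% over the YPD libraries, and SC at 37 °C lay close to YPD. Of the 8 copper genes tested, 3 (37.5%) were lower in YPD, against 19.5% of all genes, and none was higher. These were the transporters *CTR1* and *CTR3*, by 0.72 and 0.70, and the copper-zinc superoxide dismutase *SOD1*, by 1.53. The call of *CTR3* was lost with the temperature covariate and without any 1 library of SC or of YPD at 24 °C (adjusted p 0.0502 to 0.0785, limma).

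**Figure D3:**
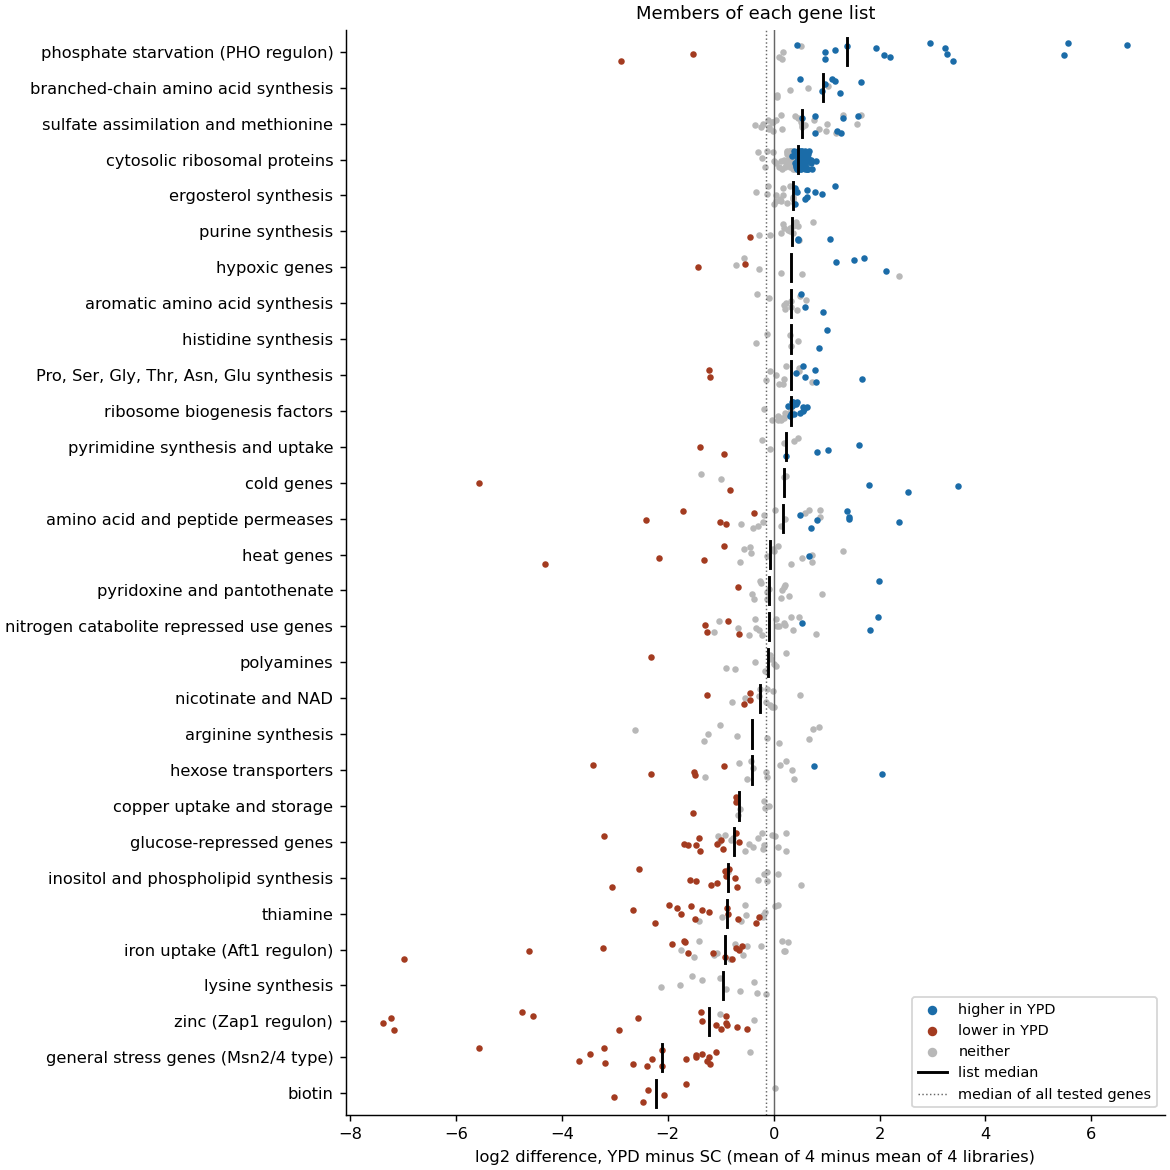
Log2 difference, YPD minus SC, on the horizontal axis for every tested member of each gene list, one row per list, ordered by list median (black bar), with blue for genes called higher in YPD, red for lower and grey for neither. The dotted line is the median of all tested genes at -0.15, and the phosphate list (median 1.39) and the biotin list (median -2.22) are at the ends.

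Several genes of amino acid synthesis were higher in YPD. Of the 12 tested genes for branched-chain amino acids 7 (58.3%) were higher, against 6.46% of all genes, and none lower (median 0.93). *LEU1*, an enzyme of leucine synthesis, had 16355 and 17437 scaled counts in YPD at 24 °C, 19409 and 20292 at 32 °C, 5261 and 4534 in SC at 30 °C, and 6883 and 7088 in SC at 37 °C, a log2 difference of 1.65. *BAT1*, the mitochondrial aminotransferase of this path, was higher by 1.25, *LEU9* by 1.15, the mitochondrial carrier *OAC1* by 1.10 and *ILV2*, the first common enzyme, by 0.91. Of the 7 histidine genes *HIS1* and *HIS4* (28.6%) were higher, by 1.00 and 0.86. Of the 13 aromatic amino acid genes *ARO4*, *ARO2* and *ARO1* (23.1%) were higher, by 0.93, 0.58 and 0.51. Scaling raised these counts to 4 of 7 and 8 of 13. The calls of *ARO1* and *HIS4* were lost without SC at 30 °C replicate 2, among others for *ARO1* (adjusted p 0.054 for *HIS4* and up to 0.0678 for *ARO1*, limma).

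Methionine, serine, threonine and asparagine genes were mostly higher where called. Of the 33 genes for sulfate assimilation and methionine 7 (21.2%) were higher, against 6.46% of all genes, and none lower (median 0.54), and 11 were higher after scaling. They included *MET5*, a subunit of sulfite reductase (1.31), *SAM1*, which makes S-adenosylmethionine (1.28), *HOM3*, the first enzyme towards threonine and methionine (1.19), and *CYS3* (0.78). *MET5* lost its call without either library of SC at 30 °C or without YPD at 32 °C replicate 2 (adjusted p 0.0611 to 0.0751, limma). *MET32* and *MHT1* each lost a call without any 1 of 6 libraries, and *SAM4* without 1 library (adjusted p up to 0.102, limma). The list took different shares at the YPD temperatures, with 0.557 and 0.567% of counts at 24 °C and 1.14 and 1.21% at 32 °C. Over the SC libraries the share was 0.508 to 0.615%, so YPD at 24 °C lay within the range of SC. Of the 18 genes for proline, serine, glycine, threonine, asparagine and glutamate 6 (33.3%) were higher and 2 (11.1%) lower. Over all genes these shares were 6.46 and 19.5%. *ASN1*, asparagine synthetase, had 16547 and 16118 scaled counts in YPD at 24 °C, 21552 and 23846 at 32 °C and 5760 to 6487 over the SC libraries (log2 difference 1.67, limma, adjusted p = 0.000104). The isoenzymes of the first step of serine synthesis went in opposite directions, *SER33* up by 0.81 and *SER3* down by 1.23. Likewise *GDH3*, an isoform of glutamate dehydrogenase, was lower by 1.2.

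None of the 10 lysine genes was called, with a median of -0.96, and with environment as the factor over 12 libraries 9 of them passed as lower. *LYS20*, homocitrate synthase, had 27807 and 29429 scaled counts in SC at 30 °C and only 1706 and 2059 in SC at 37 °C, against 1611 and 1658 in YPD at 24 °C, then 2708 and 2975 at 32 °C. *LYS9* followed it, with 32047 and 40897 in SC at 30 °C and 1812 to 2774 in the other 6 libraries. In both genes the SC libraries at 30 °C stood alone and those at 37 °C overlapped the YPD values. The 10 arginine genes had no call either (2 higher after scaling), and values differed between the YPD temperatures: *ARG3*, of the ornithine branch, had 80.3 and 51.0 scaled counts in YPD at 24 °C, 2212 and 1735 at 32 °C and 1673 to 2928 over the SC libraries. *ARG1* was likewise lowest in YPD at 24 °C, with 1098 and 1050 scaled counts, and highest in YPD at 32 °C, with 11799 and 11414.

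Of the 24 amino acid and peptide permease genes 7 (29.2%) were higher in YPD, against 6.46% of all genes, and 5 (20.8%) were lower, against 19.5%. *PTR2*, the importer of di- and tripeptides, had 3323 and 3292 scaled counts in YPD at 24 °C, 2709 and 3132 at 32 °C, 296 and 342 in SC at 30 °C, and 1155 and 1120 in SC at 37 °C (log2 difference 2.37, adjusted p = 0.00543, limma). *MMP1*, an importer of S-methylmethionine, was higher by 1.43, *OPT1*, of oligopeptides, by 1.42, *DIP5*, of acidic amino acids, by 1.38, *BAP2*, of branched-chain amino acids, by 0.83, and the broad permease *GNP1* by 0.70. Lower in YPD were the basic amino acid permease *ALP1* (-2.40), the proline permease *PUT4* (-1.72), *AGP2* (-1.02), *UGA4* (-0.91) and *HIP1* (-0.38), the last of which lost its call after scaling. Leaving out single libraries ended the calls of *BAP2* (5 libraries, adjusted p up to 0.0656, limma), of *OPT1* without either library of SC at 30 °C (up to 0.0539), of *HIP1* without either of YPD at 24 °C (up to 0.0516) and of *UGA4* without SC at 30 °C replicate 1 or YPD at 24 °C replicate 1 (up to 0.054). *CHA1*, which breaks down serine and threonine when these are supplied, was higher by 3.08, with 1860 and 1927 scaled counts in YPD at 24 °C, 5687 and 5007 at 32 °C and 267 to 525 over the SC libraries.

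Of the 6 biotin genes 5 (83.3%) were lower, against 19.5% of all genes, with the lowest list median of -2.22. *BIO3*, of biotin synthesis, had 5061 and 5695 scaled counts in SC at 30 °C, 667 and 1110 in SC at 37 °C, 180 and 173 in YPD at 24 °C, then 411 and 375 at 32 °C, a difference of -3.02. *VHT1*, the biotin importer, was lower by 2.06, *BIO5*, an importer of a precursor, by 2.47, *BIO4* by 2.37 and *BIO2* by 1.65. Within SC each of them was lower at 37 °C than at 30 °C, from -1.30 on the log2 scale for *BIO2* to -2.64 for *BIO3* (limma over 12 libraries). Of the 24 thiamine genes 14 (58.3%) were lower and none higher (10 lower after scaling). *THI4*, of thiazole synthesis, fell by 2.66, the activator *THI2* by 1.98, the importer *THI7* by 1.83 and *THI20* by 1.49. The calls of *THI3*, *THI73*, *THI74*, *SNZ2*, *SNZ3* and *SNO2* were lost without single libraries (adjusted p up to 0.101, limma). *THI5* and *THI12*, which make the pyrimidine part, have 99.3% identical coding sequences and at most 80.1 scaled counts in any of the 8 libraries, so their falls of 2.24 and 1.74 are uncertain. Of the 15 nicotinate and NAD genes 4 (26.7%) were lower and none higher, near the 19.5% of all genes, and 2 were lower after scaling. Of the 15 pyridoxine and pantothenate genes *SNZ1* was higher by 1.98 and *CAB5* lower by 0.68. Each was 6.67% of the list, against 6.46% of all genes higher and 19.5% lower.

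Of the 18 genes of inositol and phospholipid synthesis 11 (61.1%) were lower in YPD, against 19.5% of all genes, and none was higher. The median was -0.86, and the share of counts was 0.230 to 0.308% in YPD and 0.474 to 0.668% in SC. *INO1*, which makes inositol phosphate, had 1512 and 1393 scaled counts in SC at 30 °C, 1179 and 970 in SC at 37 °C, 158 and 172 in YPD at 24 °C, then 323 and 230 at 32 °C. The difference was -2.55 ± 0.25 (SE). *OPI3*, the last methylation step to phosphatidylcholine, fell by 3.06, with 602 and 681 scaled counts in YPD at 24 °C, 2868 and 2825 at 32 °C and 9097 to 13633 over the SC libraries. *CHO1*, phosphatidylserine synthase, fell by 1.58, *ITR1*, the inositol importer, by 1.46, and *CKI1*, choline kinase, by 1.19. The activator genes *INO2* and *INO4* fell by 1.07 and 0.89, and the repressor gene *OPI1* by 0.84. The call of *INO2* was lost with the temperature covariate (adjusted p = 0.0715, limma).

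Of the 25 ergosterol genes 9 (36.0%) were higher in YPD, against 6.46% of all genes, none was lower and the others did not pass (median 0.36). *ERG1*, squalene epoxidase, had 20777 and 20365 scaled counts in YPD at 24 °C, 32868 and 29794 at 32 °C and 10756 to 11881 over the SC libraries (log2 difference 1.16). *ERG11*, the target of azole drugs, was higher by 0.91, *ERG3* by 0.77, *ERG25* by 0.64 and *ERG6* by 0.62. The call of *ERG6* was lost with the temperature covariate (adjusted p = 0.0944, limma), and without either library of SC at 37 °C or without YPD at 32 °C replicate 2 (adjusted p up to 0.0574, limma). *ERG2*, *ERG24* and *HMG1* lost theirs without any 1 of 6, 5 and 3 libraries (adjusted p up to 0.0963, limma). With the covariate *ERG24* (0.116) and *HMG1* (0.0568) were lost as well. Of the 12 hypoxic genes 4 (33.3%) were higher, against 6.46% of all genes, and 2 (16.7%) lower, against 19.5%. *HEM13*, of heme synthesis, was higher by 2.11, *ANB1*, the hypoxic form of a translation factor, by 1.70, *AAC3*, a mitochondrial carrier of ADP and ATP, by 1.52, and the sterol importer *AUS1* by 1.18, whereas *CYC7* and *COX5B*, isoforms of respiratory proteins, were lower by 1.44 and 0.53. The members thus went in both directions.

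The cell wall mannoprotein genes *TIR1*, *TIR3* and *TIR4*, known as cold and low-oxygen genes, were higher in YPD, the first and the second of them among the 12 largest rises. *TIR1* had 10510 and 10127 scaled counts in YPD at 24 °C, 10681 and 7195 at 32 °C, 1822 and 2006 in SC at 30 °C, and 338 and 415 in SC at 37 °C, a difference of 3.49 ± 0.57 (SE). *TIR3* was higher by 2.54 and *TIR4* by 1.80, and in YPD both had larger values at 32 °C than at 24 °C, so neither was highest at the lowest temperature. Of the 9 cold genes tested, these 3 (33.3%) were higher, against 6.46% of all genes. Lower were *OLE1*, the fatty acid desaturase, and *HSP12*, 22.2% of the list against 19.5% of all genes. Within SC the 3 *TIR* genes were lower at 37 °C than at 30 °C, *TIR1* by 2.35, *TIR3* by 1.33 and *TIR4* by 1.25. The call of *OLE1* was lost with the temperature covariate and without any 1 library of SC at 30 °C or of YPD at 24 °C (adjusted p 0.0654 to 0.0698, limma).

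General stress genes were lower in YPD almost throughout. Of the 19 tested 18 (94.7%) were lower, against 19.5% of all genes, and none was higher, with a median of -2.11. The share of counts of the list was 0.223 to 0.305% in YPD, 0.788 and 0.823% in SC at 30 °C, and 1.10 and 1.17% in SC at 37 °C. *HSP12* (YFL014W), a small membrane-binding stress protein, had 7163 and 7911 scaled counts in SC at 30 °C, 24129 and 24274 in SC at 37 °C, 194 and 179 in YPD at 24 °C, then 494 and 386 at 32 °C. The difference was -5.56 ± 0.50 (SE), 47.1-fold lower in YPD (limma, adjusted p = 0.00018). *HSP12* was higher at the higher temperature in each medium, by 1.68 in SC and 1.22 in YPD, and even the YPD libraries at 32 °C were below those of SC at 30 °C. *CTT1*, cytosolic catalase, fell by 3.68. The differences were -3.46 for *SPI1*, a cell wall protein, -3.21 for *ALD3*, and -3.19 for *GPH1*, which breaks down glycogen. *PGM2*, *GSY2* and *GLC3*, of glycogen metabolism, fell by 2.65, 2.11 and 1.47, and the trehalose synthesis genes *TSL1*, *TPS2* and *TPS1* by 1.23, 1.2 and 1.08. The calls of *YGP1* (-2.30) and *TSL1* were lost when any 1 library of SC at 37 °C or of YPD at 24 °C was left out (adjusted p 0.0731 to 0.0854, limma).

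Most heat genes were not called. Of the 18 heat genes 4 (22.2%) were lower, against 19.5% of all genes, and 1 (5.56%) was higher, against 6.46%. Both shares were near those of all genes, and the median was -0.07. *HSP26*, a small chaperone also under Msn2 and Msn4, fell by 4.31, with 7660 and 9465 scaled counts in SC at 30 °C, 11560 and 14590 in SC at 37 °C, 234 and 285 in YPD at 24 °C, then 1329 and 878 at 32 °C. *SSA4* fell by 1.32 and *HSP10* by 0.93. *HSP30* fell by 2.17 but lost its call with scaling and with the temperature covariate, and without any 1 library of SC at 37 °C or of YPD (adjusted p 0.0633 to 0.101, limma), its SC values being 467 and 559 at 30 °C and 2884 and 3968 at 37 °C. *YDJ1*, a co-chaperone, was higher by 0.68, a call lost with the temperature covariate (adjusted p = 0.0583, limma). Over the whole list the share of counts was 0.871 and 0.876% in SC at 30 °C, 1.42 and 1.45% in SC at 37 °C, 1.47 and 1.65% in YPD at 24 °C, and 0.852 and 0.970% in YPD at 32 °C, so it did not separate the media.

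Of the 135 tested genes in the list of cytosolic ribosomal proteins 75 (55.6%) were higher in YPD, against 6.46% of all genes, and none was lower, with a median of 0.46. The list was drawn by symbol and holds 1 gene of another kind, *RPP1*, of RNase P, which was not called (-0.02). The called members differed by 0.34 to 0.81, and many of them are near-identical pairs between which reads could be split. These genes took 14.7 to 16.7% of all counts in the YPD libraries, 9.35 and 10.5% in SC at 30 °C, and 11.9 and 12.9% in SC at 37 °C, without overlap between the media. Of the 26 ribosome biogenesis genes 15 (57.7%) were higher and none lower (median 0.32, 19 higher after scaling). The largest rises in that list were *NOP7*, of the large subunit (0.64), *RPA190*, the largest subunit of RNA polymerase I (0.57), *GAR1*, of pseudouridylation (0.56), and *HAS1*, a helicase (0.56). *NOP7* lost its call with the temperature covariate and without SC at 37 °C replicate 2 or either library of YPD at 24 °C (adjusted p 0.0545 to 0.0577, limma). *NOP1*, *NOP2* and *RRP5* did so with the covariate and without any 1 of 5, 6 and 6 libraries (adjusted p up to 0.182, limma). In the closest pair *NOP1*, *NOP2*, *NOP7*, *NOP58*, *RRP5*, *RPA43* and *GAR1* did not pass (adjusted p 0.0525 to 0.56, limma). Genes of ribosomes and of general stress thus moved with the medium beside every other list, and their part in the other results was not tested. The study's methods place the harvest late in growth and name no cell density for each medium. Growth stage at harvest therefore cannot be told apart from the medium, and it was not tested.

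Of the 28 glucose-repressed genes listed 11 (39.3%) were lower in YPD, against 19.5% of all genes. None was higher and the others did not pass (median -0.74). Among those that did not pass were *ADH2* (0.23), *FBP1* (-0.04), *ICL1* (0.07) and *CAT8* (-0.20), of growth on non-sugar carbon, and *PCK1* (-1.03). *ALD3* and *HXK1*, called lower, are also in the stress list. *ALD3* and *ALD2*, aldehyde dehydrogenases, differed by -3.21 and -1.70. *CIT2*, peroxisomal citrate synthase, fell by 1.61, the glucose-phosphorylating *HXK1* and *GLK1* by 1.47 and 1.41, and *JEN1*, the lactate importer, by 1.40. *JEN1* had 548 to 811 scaled counts over the SC libraries and 175 to 350 over the YPD libraries. It had 22439 and 23588 in YPG and 32537 and 35720 in SC with NaCl, so all 8 libraries lay far below the 4 others.

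Among the largest differences, 5 genes belonged to none of the lists. *COS12* (YGL263W), a subtelomeric gene, had 291 and 321 scaled counts in YPD at 24 °C, 84.6 and 82.5 at 32 °C, 22.7 and 12.7 in SC at 30 °C, and 3.08 and 4.44 in SC at 37 °C, a log2 difference of 4.13. It belongs to a family of similar genes, so its reads may be shared. The *CHA1* values stand with the permeases. *EGO4*, which encodes a small protein, fell by 4.27. *GPG1*, a partner of a glucose-sensing G protein, fell by 4.23. The log2 difference was -4.13 for *YOL131W*, an uncharacterised gene with 0 to 2.97 scaled counts in YPD and 25.6 to 63.5 in SC. It passed the filter on low values through SC alone, and with YPD values near 0 the size of its difference depends on the pseudocount, from -4.54 with a pseudocount of 0.5 to -2.15 with 10.

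The medium difference depended on the temperatures compared for many genes. The interaction, (YPD at 32 °C minus SC at 37 °C) minus (YPD at 24 °C minus SC at 30 °C), passed in 1902 genes upwards (31.6%) and 487 downwards (8.08%), and after scaling in 1229 (20.4%) and 1130 (18.8%). It passed, in either direction, in 132 of the 389 genes called higher in YPD and in 445 of the 1177 called lower. Neither share was above that of all tested genes, so the interaction was not more frequent among the called genes. Among the 24 genes with the largest differences it passed in 16. The interaction was 3.49 for *PHO89* and 3.36 for *FIT3*, while *ZRT1* (-0.03), *SPL2* (-0.03) and *PHO84* (-0.30) had none that passed.

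The 4 libraries that the comparison did not use offer a rich and a synthetic medium as well, YPG and SC with NaCl, but these differ in carbon source and salt too. Between them 42.3% of tested genes were higher in YPG and 38.8% lower. Of the 389 genes called higher in YPD 320 (82.3%) passed as higher in YPG and 43 (11.1%) as lower. Of the 1177 called lower in YPD 780 (66.3%) passed as lower in YPG and 211 (17.9%) as higher. After scaling 41.5% of tested genes were higher in YPG and 42.0% lower, and the shares in the same direction were 81.7 and 69.2%. *PHO84* had 23800 and 22366 scaled counts in YPG and 666 and 891 in SC with NaCl, a log2 difference of 4.90, and *SPL2* 269 and 449 against 46.6 and 73.9, a difference of 2.55. The phosphatases differed little there, *PHO11* by 0.40 and *PHO12* by -0.42. In the zinc list the median was -0.02, against -1.22 on glucose. The ribosomal protein genes had a median of 2.98 and the stress genes one of -4.23, with shares of counts of 1.57 and 1.71% and of 6.36 and 7.34% in SC with NaCl. Medium, carbon source and salt cannot be told apart in this comparison.

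**Figure D4:**
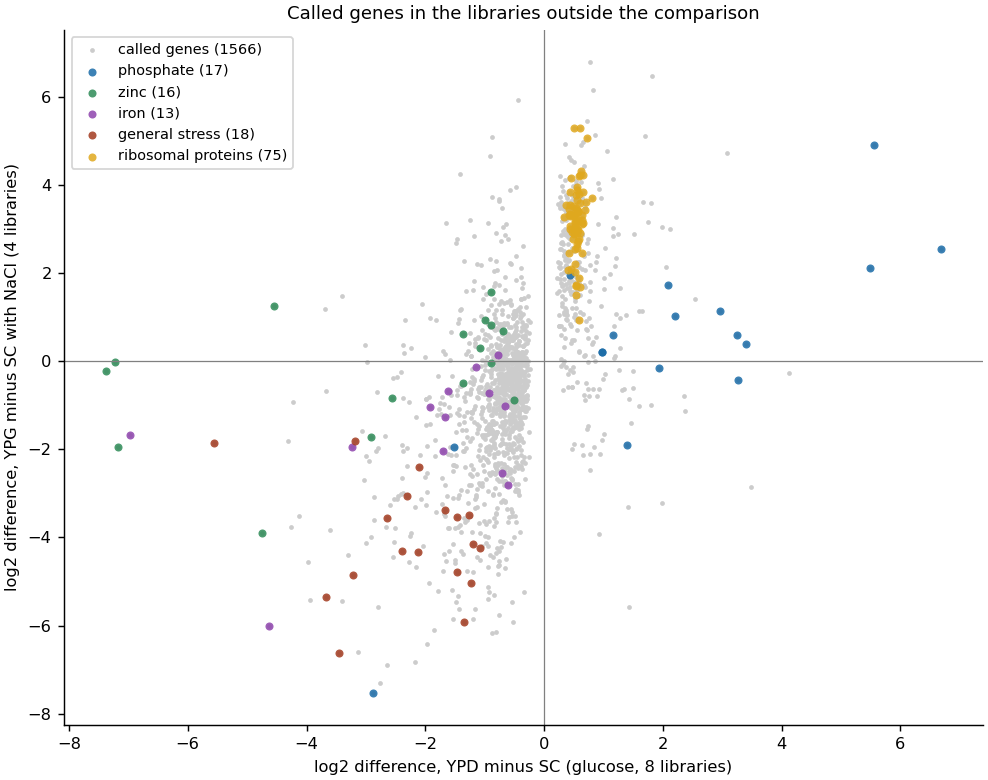
Log2 difference YPG minus SC with NaCl (vertical axis, 4 libraries) against log2 difference YPD minus SC (horizontal axis, 8 libraries) for the 1566 called genes as points, with members of 5 lists in colour. Phosphate genes with the largest rises lie in the upper right, ribosomal protein genes in a narrow column with a list median of 2.98 on the vertical axis, and zinc genes on both sides of 0 on that axis.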

How the data were processed

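The deposited scaled counts (a signal, not whole reads) and FPKM were made by the authors: reads were aligned with Hisat2 to the R64 genome, sorted with SAMtools 1.9, quantified per gene with Cufflinks and scaled to a common library size with Cuffnorm. The steps between low values pointed to 12600000 to 15500000 fragments in the 8 libraries, with 78.7 to 82.0% of values from 0.5 to 20 whole within 0.01 of a step, too few for a test on counts, so limma was used in place of the count test of the study's methods. Strandedness was not given in the sources used here, so overlapping genes may share reads. Log2(scaled count + 1) was tested with limma 3.58.1 in R 4.3.3 with a mean-variance trend, medium as the only factor over 8 libraries. The SD or SE over 4 libraries includes the temperature difference within a medium. The test took the 4 libraries of a medium as independent, although they were 2 replicates at each of 2 temperatures. Its p-values thus count replicates of one environment as replicates of the medium. Contrasts of environments were fitted over all 12 libraries. The fit was tested on simulated data with known medium differences. Libraries of a medium were drawn there without a temperature difference, so this setting of the real data was not covered. Gene names came from the R64 annotation, which matched 6088 of 7127 identifiers, and 42 called identifiers had no name. The genome read for sequences is of the same build. Members and gene lists were chosen with earlier results of these data known. Named are the 12 largest differences in each direction among genes called with and without median-of-ratios scaling, called members of the lists, some uncalled members given as values, and *ADH1*, *TDH1*, *ENO1* and *AHP1*, chosen after their values were seen. Alternatives were scaling, pseudocounts of 0.5 and 10, filters, FPKM, temperature as covariate, replicate number as a block, environment as factor and leaving out each library.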

Additional observations from a re-analysis of the deposited data

Results flagged for a closer look

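In 7 of the 474 groups of 4 libraries examined for named genes, 1 library stood away from the other 3 by a gap that took up most of the range of the group. Chance alone gives this in about 1 in 20 groups of 4 interchangeable values, and 7 of 474 is below that rate. The rate need not hold here, since each group was 2 libraries at each of 2 temperatures. The gap as a share of the range was 0.99 for *MET32* in SC (162 in 3 libraries and 195 in SC at 37 °C, replicate 1), 0.893 for *HIP1* in SC, 0.865 for *TIR1* in YPD (7195 in YPD at 32 °C, replicate 2, against 10127 to 10681), 0.86 for *GLK1* in YPD, 0.842 for *NMA1* in SC, 0.839 for *URA5* in YPD and 0.831 for *ILV1* in YPD.

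The medium difference depended on the temperatures compared, by the interaction test of limma over all tested genes, in 16 of the 24 genes with the largest differences. The interaction, in log2 units and positive where YPD minus SC was greater between the higher temperatures, was 3.49 for *PHO89*, 3.36 for *FIT3*, 2.53 for *ZPS1*, 2.38 for *FIT2*, 2.11 for *TIR1*, 1.94 for *TIR3*, 1.86 for *VEL1*, 1.5 for *CHA1*, 1.45 for *HSP26*, 1.4 for *YOR387C*, 1.02 for *GPG1* and 0.6 for *ADH4*. It was negative for *PTR2* (-2.02), *PHO12* (-1.37), *PHO11* (-0.68) and *VTC3* (-0.33).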

How the results depend on the processing

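The main counts of genes past the limma threshold were 402 higher and 1219 lower in YPD. The number higher became 879 with median-of-ratios scaling, 854 with that scaling and the temperature covariate together (chosen after seeing the data), 868 with environment as the factor over 12 libraries, and 1025 with YPD at 32 °C against SC at 30 °C only, and the number lower became 2495 with environment as the factor. Leaving out each library gave 293 to 344 higher and 827 to 1428 lower. Under the replicate block 310 were higher and 970 lower. The deviations of same-numbered libraries correlated at -0.176 to 0.208 between environments, with both signs. This does not decide whether the numbers pair the samples, and the main test assumed no pairing. Without overlap the main counts of 526 and 1427 became 1053 higher with scaling, 2143 and 2330 in the closest pair, and 56 and 329 with a gap of at least 0.5, and 558 to 608 and 1448 to 1765 without 1 library. Scaling changed temperature in YPD from 2595 and 408 to 1249 and 1276 and the interaction from 1902 and 487 to 1229 and 1130. Leaving out 1 library gave 639 to 835 and 909 to 1096 for the closest pair, 374 to 492 and 393 to 500 for temperature in SC, 1565 to 2095 and 266 to 299 for temperature in YPD, 1316 to 1710 and 349 to 402 for the interaction, and 2352 to 2718 and 2181 to 2462 for YPG. Counts fell by over 1.5 times in the closest pair and for genes higher with temperature in YPD without YPD 32 °C replicate 1, for those lower without YPD 24 °C replicate 2, for genes higher with temperature in SC without SC 30 °C replicate 1 or 2 or SC 37 °C replicate 2, and for those lower without SC 30 °C replicate 2 or SC 37 °C replicate 1. With environment as the factor 22 of 27 iron genes and 9 of 10 lysine genes were lower and 119 of 135 genes of the ribosomal protein list higher. No alternative reversed a named gene. For called genes the rule had fixed the direction when a library was left out and in the closest pair. The 24 largest differences, chosen among genes that kept their call under scaling, lost no call under the other alternatives, and 58 of the 237 named genes lost theirs under at least 1, 43 of them without a single library.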

Other observations

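Of the 24 genes for the use of poor nitrogen sources 3 (12.5%) were higher in YPD, against 6.46% of all genes, and 4 (16.7%) lower, against 19.5%. Those higher were *ARO9* (1.98) and *ARO10* (1.82), which degrade aromatic amino acids to fusel alcohols, and the ammonium importer *MEP3* (0.54). *ARO9* had 5168 and 4908 scaled counts in YPD at 24 °C, 4374 and 3844 at 32 °C and 1000 to 1356 over the SC libraries. *UGA1* and *UGA2*, which degrade GABA, were lower by 1.26 and 1.30, *PUT2*, of proline breakdown, by 0.87 and the allantoin permease *DAL4* by 0.66. Of the 18 purine genes 3 (16.7%) were higher, against 6.46% of all genes, and 1 (5.56%) was lower, against 19.5%. *AAH1*, adenine deaminase, was higher by 1.06 on 2654 to 5480 scaled counts in YPD against 1772 to 1892 in SC. Of the 11 pyrimidine genes tested 4 (36.4%) were higher, led by the uridine importer *FUI1* (1.61) and by *URA2* (1.02). *URA8* and *URA10* (18.2%) were lower, near the 19.5% of all genes. Of the 10 polyamine genes only *TPO2* was called, with a log2 difference of -2.31, and it had 13234 and 14975 scaled counts in SC at 37 °C against 808 to 1662 in the other 6 libraries, and its call was lost with scaling, with the temperature covariate (adjusted p = 0.26, limma) and without any 1 library of SC at 37 °C or of YPD (0.0688 to 0.11).

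Of the 18 hexose transporter genes tested 2 (11.1%) were higher in YPD, against 6.46% of all genes, and 5 (27.8%) were lower, against 19.5%. The others were not called. *HXT2* had 31852 to 33502 scaled counts over the YPD libraries, 14861 and 11260 in SC at 30 °C, and 5266 and 4333 in SC at 37 °C (log2 difference 2.05), and *HXT3* was higher by 0.77. *HXT6* was lower by 3.41, but its coding sequence is 99.8% identical to that of *HXT7*, so the reads could be divided otherwise. Some of the most abundant transcripts of the called genes were enzymes, picked here after their values were seen. *ADH1*, the main fermentative alcohol dehydrogenase, had 208920 and 206110 scaled counts in YPD at 24 °C, 115940 and 134630 at 32 °C, 53419 and 42243 in SC at 30 °C, and 76057 and 61703 in SC at 37 °C (log2 difference 1.5). *TDH1*, a glyceraldehyde-3-phosphate dehydrogenase, differed by -2.81, *ENO1*, an enolase, by -1.47, and *AHP1*, a thiol peroxidase, by -2.86. *ADH1* rose where *ADH4* fell by 4.54, and the level per length of *ADH1* was 10870 FPKM in YPD and 3813 FPKM in SC.

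As examples from the 42 called identifiers with no match in the annotation, YOL150C was lower by 3.14, YMR173W-A lower by 2.51, YBR051W higher by 1.26 and YDR537C higher by 1.02. Their positions were not read here and strandedness was not given, so their values may include reads of overlapping genes.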
